A study of Mus musculus with 24 samples.

Results

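Transcripts of 10 genes that mark cardiac macrophages, Cd68, Itgam, C1qa, C1qb, C1qc, Csf1r, Cd163, Mrc1, Lyz2 and Ptprc, were followed across 24 mouse heart libraries. The genes were taken by symbol from the 24421 genes of the count files, and all 10 were among the 15804 genes that passed the filter on low counts. The study compared hearts with defects in the mitochondrial oxidation of long-chain fatty acids, using alleles of Acadl (long-chain acyl-CoA dehydrogenase) and Acadvl (very long-chain acyl-CoA dehydrogenase). There were 5 libraries labelled Acadl KO / Acadvl Het and 4 labelled Acadl KO / Acadvl wt. A further 4 were Acadl Het / Acadvl KO, 3 were heterozygous for both genes (Acadl Het / Acadvl Het), 4 were Acadl Het / Acadvl wt and 4 were wild type (Acadl wt / Acadvl wt). All hearts came from chow-fed male mice aged 14 weeks on a mixed background, mostly C57BL/6N with some 129. The Acadvl KO hearts are also Acadl Het, as are their Acadl Het / Acadvl wt controls. How the alleles were made and whether they are restricted to a cell type is not stated in the labels. No label says that the hearts came from separate mice, so p-values reflect the spread among these libraries alone, which may be technical.

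Macrophages live among the heart muscle cells from before birth, where they clear dying cells and cell debris, and monocytes from the blood add to them after injury. C1q, the recognition part of the classical complement pathway, is built from the products of C1qa, C1qb and C1qc and is made mainly by tissue macrophages. Csf1r is the receptor through which the growth factors Csf1 and Il34 keep macrophages alive, and Ptprc (CD45) is a phosphatase on the surface of leukocytes. Itgam (CD11b) pairs with Itgb2 to form a complement receptor, Cd68 and Lyz2 (lysozyme) are lysosomal or secreted products of phagocytes, and Cd163 and Mrc1 (CD206) are scavenger receptors for haemoglobin bound to haptoglobin and for mannose-bearing glycoproteins.

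Each library held 34320838 to 51743114 counts, with reads in 17571 to 18351 genes. The labels give RNA isolation batch 1 for 9 libraries and batch 2 for 15, with each genotype in both. Acadvl followed its label, at 599.2 ± 121.1 CPM in Acadl Het / Acadvl KO hearts and 1632 ± 82.5 CPM in Acadl Het / Acadvl wt hearts, where CPM is the count scaled to library size (SD, n = 4 each). Acadl went against its label: its lowest level in the 9 libraries labelled Acadl KO was 1697 CPM and its highest in the other 15 was 1625 CPM, so every direction given for Acadl KO is one of libraries that carry this label. Liver transcripts stood out in 6 libraries, in which Alb (albumin) was above 10 CPM: all 3 of Acadl Het / Acadvl Het, replicates 2 and 3 of Acadl KO / Acadvl wt and replicate 2 of Acadl Het / Acadvl KO. The highest Alb level was 158.5 CPM, in Acadl Het / Acadvl Het replicate 1, which also held 207300 CPM of the ribosomal RNA precursor Rn45s. No library was treated as a copy of another: over 37 pairs within a genotype, chi-square per degree of freedom was 14.92 or more.

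The 3 C1q genes lie next to each other on the minus strand of chromosome 4 (mm10): C1qb at 136880145 to 136886177, C1qc at 136889802 to 136892914 and C1qa at 136895916 to 136898844. Cd163 lies on the plus strand of chromosome 6 (124304651 to 124330527), Mrc1 on the plus strand of chromosome 2 (14229414 to 14332023) and Itgam on the plus strand of chromosome 7 (128062640 to 128118491). Cd68 lies on the minus strand of chromosome 11 (69664213 to 69666170), Lyz2 on that of chromosome 10 (117277541 to 117282272) and Ptprc on that of chromosome 1 (138062859 to 138175305). Each gene's value counts reads over its annotated exons. Mir6983 overlaps Csf1r and Mir511 overlaps Mrc1, and the counting gave a shared read to each gene without regard to strand, so these pairs cannot be told apart where they overlap. Lyz2 has a near-identical neighbour, Lyz1, which can take or lend reads, so the values of both are uncertain.

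Promoters are shown for 3 of the genes because C1qb and C1qc moved together from library to library and Cd163 moved apart from both. The sequences are RefSeq's on GRCm38.p6, from 250 bases before to 50 bases after RefSeq's start of the gene, written 5′ to 3′ on the strand of the gene. They cover chr4:136886151-136886450 (C1qb, minus strand), chr4:136892865-136893164 (C1qc, minus strand) and chr6:124304401-124304700 (Cd163, plus strand). RefSeq's start of C1qb lies upstream of the one in the count files. Capitals mark GAGGAA, or its reverse complement TTCCTC, the core letters bound by Spi1 (PU.1), a factor of the macrophage lineage. In C1qc the capitals take in the longer form GAGGAAGT, read as ACTTCCTC, which contains the shorter one.
C1qb: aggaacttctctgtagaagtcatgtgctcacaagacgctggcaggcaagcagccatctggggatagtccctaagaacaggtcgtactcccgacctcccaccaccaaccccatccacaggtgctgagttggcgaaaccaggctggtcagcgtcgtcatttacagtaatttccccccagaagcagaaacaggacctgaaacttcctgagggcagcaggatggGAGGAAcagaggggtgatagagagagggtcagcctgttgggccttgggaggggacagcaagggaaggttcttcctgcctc
C1qc: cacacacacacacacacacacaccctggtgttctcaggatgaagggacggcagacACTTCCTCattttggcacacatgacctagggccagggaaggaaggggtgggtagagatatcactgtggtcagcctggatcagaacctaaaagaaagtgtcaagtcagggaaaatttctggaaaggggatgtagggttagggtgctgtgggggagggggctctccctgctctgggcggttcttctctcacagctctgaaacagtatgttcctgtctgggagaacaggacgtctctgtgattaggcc
Cd163: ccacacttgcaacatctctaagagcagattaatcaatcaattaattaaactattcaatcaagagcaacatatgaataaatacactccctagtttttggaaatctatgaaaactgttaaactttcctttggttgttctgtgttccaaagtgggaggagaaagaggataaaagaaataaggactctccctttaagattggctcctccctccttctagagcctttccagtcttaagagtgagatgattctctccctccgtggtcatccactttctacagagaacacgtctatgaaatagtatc
On either strand, GAGGAA was in 6 of the 9 promoter windows of the 8 genes with a window to search. These were the windows of Cd68, Itgam, C1qb, C1qc and Mrc1 and 1 of 2 of Ptprc, and it was in neither Cd163 nor Lyz2. It was in 28.28% of all 32851 promoters of the same length, and GAGGAAGT in 3.202%. These are matches of letters only, and no binding was measured. C1qa and Csf1r have no window here.

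Per exon length, Lyz2 was the highest of the 10 genes, at a mean of 103.2 RPKM over the 24 libraries (reads per kilobase of exon, scaled for library size). The C1q genes followed close to one another, C1qc at 33.9, C1qa at 32.8 and C1qb at 32.2 RPKM. Csf1r (plus strand of chromosome 18, 61105572 to 61131139) had 11.96 RPKM, Cd163 8.12, Cd68 5.86 and Mrc1 5.82, and the lowest were Itgam at 1.09 and Ptprc at 1.08 RPKM. Ptprc also spread most, with 5.94 times its lowest level in its highest library, against 2.00 times for Mrc1 and 2.02 times for C1qc. The lowest count behind any of these values was 101 reads (Itgam) and the highest 9138 (Lyz2). Acadl Het / Acadvl KO replicate 4 was the highest of the 24 libraries for 7 of the 10 genes: Lyz2, the 3 C1q genes, Csf1r, Cd68 and Ptprc. Of the other 3, Mrc1 was highest in Acadl Het / Acadvl KO replicate 3, Itgam in Acadl Het / Acadvl wt replicate 4 and Cd163 in Acadl KO / Acadvl Het replicate 3.

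**Figure D1:**
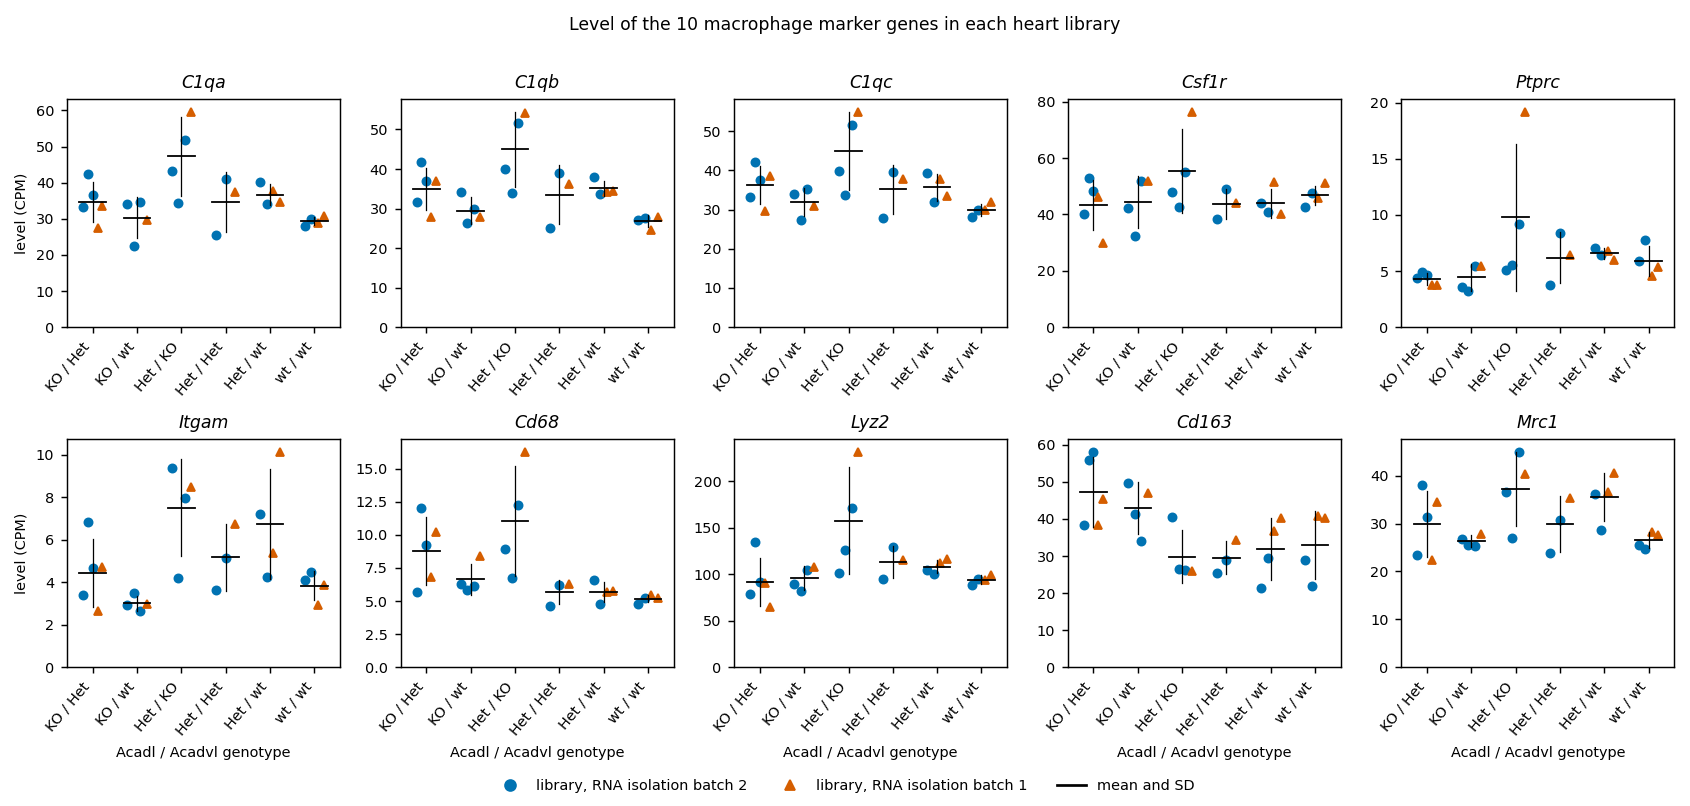
Level of each of the 10 genes in CPM (y axis, from 0, a scale per gene) in every library, by Acadl / Acadvl genotype (x axis); points are libraries, their shape and colour the RNA isolation batch, and lines the mean and SD. The Acadl Het / Acadvl KO libraries reach highest for 8 of the 10 genes, while the highest Cd163 levels are in libraries labelled Acadl KO.

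Across the 6 genotypes together, 9 of the 10 genes differed (edgeR quasi-likelihood test of any difference, Benjamini-Hochberg adjusted p over all genes), where 51.1% of all genes did. Cd68 had the smallest adjusted p (0.000759), followed by C1qb (0.0039), Itgam (0.00591), Lyz2 (0.0139), C1qa (0.0149), Cd163 (0.0154), C1qc (0.0175), Ptprc (0.0278) and Mrc1 (0.035). Csf1r was the gene not called, with an adjusted p of 0.376. The count was 4 to 9 when 1 library was left out, and 4 without Acadl Het / Acadvl KO replicate 3 and likewise without replicate 4. It was 1 within batch 2 and 2 within batch 1. The pairwise comparisons share libraries with one another, so their values for a gene are not independent of each other.

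The comparison of Acadl Het / Acadvl KO with Acadl Het / Acadvl wt hearts asks what loss of Acadvl does on a shared Acadl Het background. Cd68 was 2.00-fold higher in the Acadvl KO hearts, the largest change of the 10, and Lyz2 was also called higher. No member was called lower. In bulk tissue, more cells of a type and more RNA per cell cannot be told apart, and the same holds for fewer cells and less RNA.

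Cd68 had 8.91, 6.71, 12.2 and 16.3 CPM in Acadl Het / Acadvl KO replicates 1 to 4, against 6.56, 4.78, 5.66 and 5.72 CPM in Acadl Het / Acadvl wt replicates 1 to 4. The groups did not overlap, and the Acadvl KO libraries differed more among themselves (11.04 ± 4.178 CPM) than the others (5.68 ± 0.726 CPM, SD, n = 4 each). The change of Cd68 was 1.00 as a log2 value (SE 0.22, edgeR adjusted p = 0.00211). It was 0.72 in batch 2 (adjusted p = 0.111) and 1.51 in batch 1, where the Acadvl KO side is 1 library, and it passed the threshold whichever single library was left out (0.79 to 1.16). Members called were 2 of 10, where 24.4% of all genes were called and 12.9% called higher. Cd68 was also the one member here without overlap, as were 11.7% of all genes in the higher direction.

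Lyz2 had 101.3, 125.5, 171.1 and 231.6 CPM in the Acadl Het / Acadvl KO libraries, against 104.3, 100.3, 111.6 and 116.2 CPM in the Acadl Het / Acadvl wt libraries. Replicate 1 of the Acadvl KO libraries lay within the range of the others. On the log2 scale Lyz2 rose by 0.56 (SE 0.20, edgeR adjusted p = 0.0489), 0.37 in batch 2 (adjusted p = 0.305) and 1.02 in batch 1, with its 1 Acadvl KO library. The call was lost in 18 of 24 fits that left out 1 library, and the change was 0.31 (adjusted p = 0.276) without Acadl Het / Acadvl KO replicate 4. Lyz1 was also called higher in the Acadvl KO hearts, at 6.32 ± 2.55 CPM, against 2.71 ± 0.583 CPM in Acadl Het / Acadvl wt (SD, n = 4 each, edgeR adjusted p = 0.00075).

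The C1q genes were near the threshold in the same comparison. C1qa had 43.3, 34.5, 51.8 and 59.7 CPM in the Acadl Het / Acadvl KO libraries, against 40.3, 34.0, 37.7 and 34.6 CPM in the Acadl Het / Acadvl wt libraries. Its log2 change was 0.37 (SE 0.17, edgeR adjusted p = 0.108), that of C1qb 0.36 (SE 0.15, adjusted p = 0.0797) and that of C1qc 0.35 (SE 0.14, adjusted p = 0.0758). Replicate 2 of the Acadvl KO libraries, which held 36.8 CPM of Alb, was the lowest of its group for all 3. Without that replicate all 3 were called higher, with adjusted p of 0.0379 for C1qa, 0.0255 for C1qb and 0.0215 for C1qc. Leaving out the lowest library of a group raises its mean by itself, so these calls add no support. Over all 24 fits without 1 library, the log2 change of C1qa ran from 0.23 to 0.49. That of C1qb ran from 0.24 to 0.47 and that of C1qc from 0.24 to 0.45.

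The remaining members were not called. Ptprc averaged 9.78 ± 6.54 CPM in Acadl Het / Acadvl KO and 6.57 ± 0.472 CPM in Acadl Het / Acadvl wt (SD, n = 4 each), and its highest library, at 19.2 CPM, was Acadl Het / Acadvl KO replicate 4. Ptprc had a log2 change of 0.59 (edgeR adjusted p = 0.176), 1.59 in batch 1, where that library is the whole Acadvl KO side, and -0.02 in batch 2. Csf1r had 0.36 (adjusted p = 0.146), Itgam 0.17, Mrc1 0.11 and Cd163 -0.02. The median log2 change of the 10 was 0.36, beside 0.02 for all genes.

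Further macrophage genes were called higher beside Cd68. Of 15 further macrophage markers 6 rose and 0 fell (median log2 change 0.45), among them Gpnmb (1.56, SE 0.18), Cd84 (1.47, SE 0.25), Trem2 (1.37, SE 0.26) and Lgals3 (1.26, SE 0.26), with edgeR adjusted p from 6.546e-06 (Gpnmb) to 0.00128 (Lgals3). Gpnmb and Trem2 encode surface glycoproteins of lipid-handling and phagocytic macrophages, Lgals3 encodes galectin-3 and Cd84 a receptor of leukocytes. Gpnmb averaged 10.1 CPM in Acadl Het / Acadvl KO and 3.46 CPM in Acadl Het / Acadvl wt, with no overlap of libraries. Of 14 markers of resident macrophages 0 rose and 1 fell (median 0.03), the iron exporter Slc40a1 (log2 change -1.12, SE 0.22, adjusted p = 0.00118).

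Of 8 integrin-related genes around Itgam 3 rose and 0 fell (median 0.60): Itgad (1.19), Itgb2 (0.64, adjusted p = 0.044) and the integrin activator Fermt3 (0.50). Itgb2 is the chain that pairs with Itgam. Of 13 complement genes that act with C1q 3 rose and 0 fell (median 0.25), among them the C1r protease gene C1ra (0.41) and the regulator Serping1 (0.32). Of 11 ligands and lineage factors around Csf1r 4 rose and 1 fell (median 0.39). Irf8 (0.71), Maf (0.55) and Cebpa (0.54) are lineage factors that rose, and Csf1, the ligand itself, fell (-0.66, SE 0.22, adjusted p = 0.0346).

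Of 12 markers of monocytes and their macrophage descendants 2 rose and 1 fell (median 0.24). Of 9 chemokines, not all of them particular to monocytes, 0 rose and 2 fell (median -0.27), Ccl7 (-2.46, SE 0.70) and Ccl24 (-1.19, SE 0.31). Of 8 class II antigen presentation genes none was called (median 0.66), and of 10 genes of haem and iron handling around Cd163 1 rose, Ftl1 (0.96), and 1 fell, Slc40a1 (median 0.12).

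**Figure D2:**
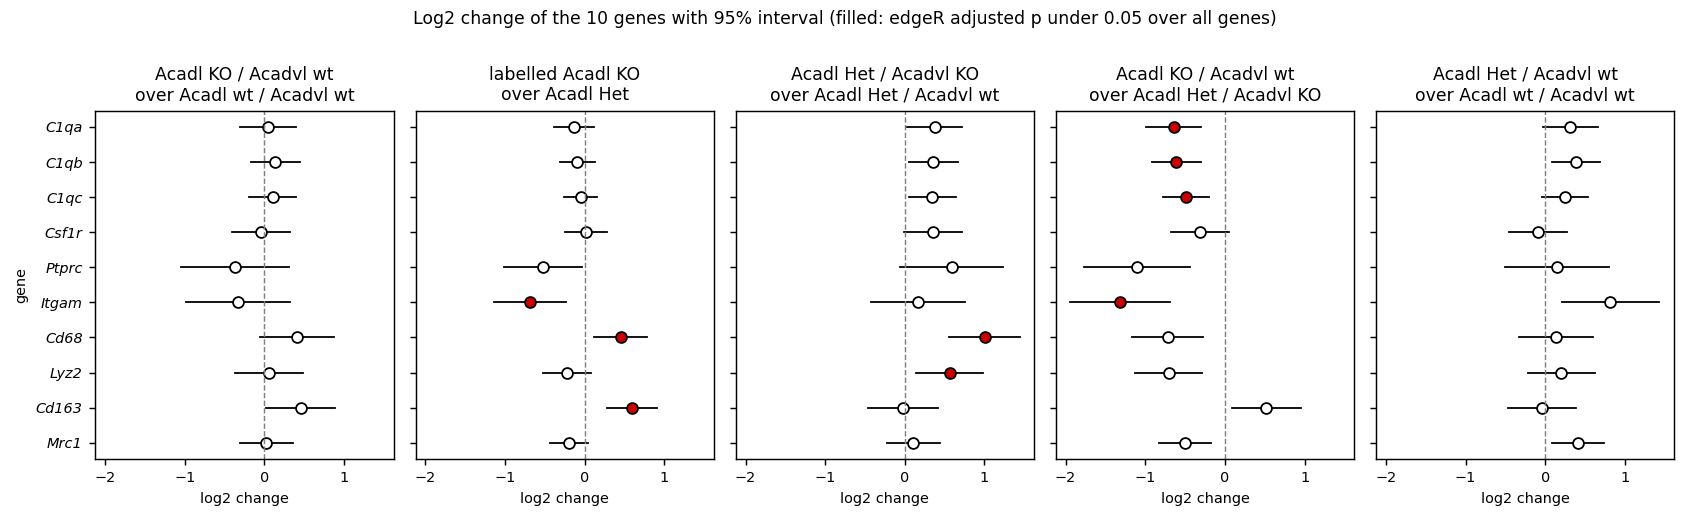
Log2 change of each of the 10 genes (rows) with its 95% interval from edgeR in 5 comparisons (panels, first-named group over second), filled red where the adjusted p over all genes was under 0.05. Cd68 is filled to the right in the Acadvl KO and in the labelled Acadl KO panels, Cd163 to the right and Itgam to the left in the labelled Acadl KO panel, and the C1q genes and Itgam to the left where Acadl KO / Acadvl wt is set over Acadl Het / Acadvl KO.

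The 9 libraries labelled Acadl KO were set over 7 Acadl Het libraries without a KO of either gene, averaged over Acadvl wt and Acadvl Het. Cd163 and Cd68 were higher in the labelled Acadl KO hearts and Itgam was lower. Members called were 3 of 10, beside 54.7% of all genes, of which 26.7% of genes were higher and 27.9% lower. None of the 10 genes separated the sides without overlap, beside 10.4% of genes higher and 7.92% lower that did.

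Cd163 had 38.3, 55.9, 58.2, 38.4 and 45.3 CPM in Acadl KO / Acadvl Het replicates 1 to 5. It had 49.6, 41.4, 34.0 and 47.0 CPM in Acadl KO / Acadvl wt replicates 1 to 4. In the 7 Acadl Het libraries it ran from 21.4 through a median of 29.3 to 40.3 CPM. The sides overlapped, since the lowest labelled KO libraries lay below the highest Acadl Het library. The log2 change of Cd163 was 0.59 (SE 0.15, edgeR adjusted p = 0.00267), and it stayed past the threshold in all 24 fits without 1 library (0.52 to 0.65). It was 0.82 in batch 2 (adjusted p = 0.00281) and 0.30 in batch 1 (adjusted p = 0.0963).

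Markers of liver macrophages (Kupffer cells) moved in part with Cd163. Clec4f, the defining one, had 1.18 CPM in libraries labelled Acadl KO and 0.407 CPM in the Acadl Het libraries (log2 change 1.47, SE 0.38, edgeR adjusted p = 0.00263). Of the 3 such markers tested, of which Timd4 and Vsig4 are not particular to the liver, 1 rose, 1 fell (Timd4, -0.62) and Vsig4 had 0.35. Their summed level was 2.62 to 4.53 CPM in Acadl KO / Acadvl Het, 2.68 to 4.0 CPM in Acadl KO / Acadvl wt, 2.63 to 2.88 CPM in Acadl Het / Acadvl Het and 2.17 to 4.01 CPM in Acadl Het / Acadvl wt, and Cd5l and Marco were too low to pass the filter. Hepatocyte markers went the other way: of 9, 0 rose and 7 fell (median log2 change -2.45), with a summed level of 11.7 to 14.0 CPM in Acadl KO / Acadvl Het and 56.8 to 350.5 CPM in Acadl Het / Acadvl Het. Without the 6 libraries above 10 CPM of Alb, no Acadl Het / Acadvl Het library remained. The comparison then set only Acadl KO / Acadvl wt, without its replicates 2 and 3, over Acadl Het / Acadvl wt. There the log2 change of Cd163 was 0.63 (adjusted p = 0.108). The part of liver cells in the Cd163 result was not tested.

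Cd68 averaged 7.85 ± 2.25 CPM in the 9 labelled Acadl KO libraries and 5.68 ± 0.746 CPM in the 7 Acadl Het libraries (SD). Its lowest, median and highest levels were 5.69, 6.82 and 12.1 CPM in the labelled Acadl KO libraries and 4.60, 5.72 and 6.56 CPM in the Acadl Het libraries. The sides overlapped: 4 of the 9 labelled KO libraries lay below the highest Acadl Het library, and 4 of the 7 Acadl Het libraries lay above the lowest labelled KO library. The log2 change of Cd68 was 0.45 (SE 0.16, edgeR adjusted p = 0.0212), 0.43 in batch 2 and 0.50 in batch 1, with adjusted p of 0.111 and 0.115. The call was lost without Acadl Het / Acadvl Het replicate 1 (0.41, adjusted p = 0.0587) and without Acadl KO / Acadvl wt replicate 4 (0.41, adjusted p = 0.0561). Without the libraries above 10 CPM of Alb, where only Acadl KO / Acadvl wt was set over Acadl Het / Acadvl wt, the change was 0.38 (adjusted p = 0.295).

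Itgam averaged 3.80 ± 1.38 CPM in the labelled Acadl KO libraries and 6.07 ± 2.21 CPM in the Acadl Het libraries (SD, n = 9 and 7). Its lowest, median and highest levels were 2.63, 3.38 and 6.82 CPM in the labelled Acadl KO libraries and 3.62, 5.38 and 10.2 CPM in the Acadl Het libraries. Of the 9 labelled KO libraries 6 lay below every Acadl Het library. On Acadvl wt the means were 3.01 ± 0.356 CPM with Acadl KO and 6.75 ± 2.58 CPM with Acadl Het (SD). On Acadvl Het they were closer, 4.44 ± 1.60 CPM and 5.17 ± 1.57 CPM in the same order. An interaction was not called for Itgam. On the log2 scale the change of Itgam was -0.68 (SE 0.22, edgeR adjusted p = 0.0118), -0.36 in batch 2 (adjusted p = 0.263) and -1.13 in batch 1 (adjusted p = 0.0737). It was past the threshold in all 24 fits without 1 library. Without the libraries above 10 CPM of Alb, where only Acadl KO / Acadvl wt was set over Acadl Het / Acadvl wt, it was -1.19 (adjusted p = 0.0261).

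Ptprc averaged 4.36 CPM in the labelled Acadl KO libraries and 6.41 CPM in the Acadl Het libraries, and its log2 change of -0.53 (SE 0.23) had an edgeR adjusted p of 0.0629 and a DESeq2 adjusted p of 0.035. The other 6 genes lay between -0.22 and 0.02, and the median of the 10 was -0.11, beside -0.02 for all genes.

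Most genes of the lists around the members were not called in the labelled Acadl KO hearts, and more were called lower than higher, beside 54.7% of all genes called and 27.9% called lower. Of the 9 chemokines 0 rose and 5 fell (median log2 change -0.95). Ccl7 was at 0.308 CPM in libraries labelled Acadl KO and 6.15 CPM in Acadl Het libraries (-4.39, SE 0.62, edgeR adjusted p = 9.357e-06). Ccl2 was at 0.577 CPM and 9.58 CPM in the same order (-4.05, SE 0.60, adjusted p = 1.681e-05). Ccl2 and Ccl7 are the ligands of Ccr2, the receptor that brings monocytes out of the blood. Of 12 monocyte markers 0 rose and 4 fell (median -0.40), among them Ccr2 itself (-1.55, SE 0.42), Cd52 (-0.89) and Vcan (-0.74). In whole heart Vcan is not particular to monocytes. Of 8 class II antigen presentation genes 0 rose and 4 fell (median -0.88), including H2-DMb1, H2-DMa and their regulator Ciita (-0.96, -0.92 and -0.89).

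Of 14 resident macrophage markers 0 rose and 6 fell (median -0.28), such as Slc40a1 (-0.79, SE 0.16), Pf4 (-0.71), Folr2 (-0.45) and Cbr2 (-0.39). Of 15 further macrophage markers 2 rose and 5 fell (median -0.10). The fractalkine receptor Cx3cr1 (-1.73, SE 0.42) and the Fc receptor gene Fcgr1 (-1.24, SE 0.38) fell, and Cd14, a receptor for bacterial lipopolysaccharide (0.75, SE 0.22), and Cd84 (0.54, SE 0.19) rose. Of 13 complement genes 1 rose and 6 fell (median -0.27), with C3, the central component, at -0.55, Cfb at -0.69, C4b at -0.43 and the C1s protease gene C1s1 at -0.41.

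Of the integrin-related genes around Itgam 1 of 8 rose, Itgad (1.28, SE 0.23, edgeR adjusted p = 8.209e-05), and 3 fell, among them the ligand Icam1 (-0.93), with a list median of -0.51. Of the 11 genes around Csf1r 1 rose and 2 fell (median -0.15), the ligand Csf1 by the most: 17.2 CPM in libraries labelled Acadl KO and 44.6 CPM in Acadl Het libraries (-1.34, SE 0.16, adjusted p = 1.043e-06). Of 10 genes of haem and iron handling around Cd163 3 rose and 3 fell (median -0.04). Hmox1, which breaks down haem, rose (2.25, SE 0.43, adjusted p = 0.000242), as did the ferritin gene Ftl1 (1.21, SE 0.09). The haptoglobin gene Hp (-1.43) and the hemopexin gene Hpx (-2.08), both liver products, fell, and Alb itself was lower (-2.77, adjusted p = 0.0421).

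Acadl KO / Acadvl wt hearts were also set against Acadl wt / Acadvl wt hearts. None of the 10 genes was called by edgeR in this comparison, beside 37.2% of all genes; at an unadjusted p under 0.05 the share was 46.5% of all genes. Cd163 had the largest rise on the log2 scale, at 0.45 (SE 0.21, 95% interval 0.02 to 0.89, adjusted p = 0.0951), with 49.6, 41.4, 34.0 and 47.0 CPM in the Acadl KO / Acadvl wt libraries, against 28.8, 21.9, 40.7 and 40.4 CPM in the Acadl wt / Acadvl wt libraries. In wild type the low pair of values is batch 2 and the high pair batch 1. Within batch 2 the log2 change of Cd163 was 0.72 (adjusted p = 0.0471) and within batch 1, with 1 Acadl KO / Acadvl wt library, it was 0.23.

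Markers of liver cells moved in this comparison as well. Of 9 hepatocyte markers 1 rose and 0 fell (median log2 change 2.43), with a summed level of 12.1 to 131.9 CPM in Acadl KO / Acadvl wt and 11.6 to 21.1 CPM in wild type. Of 3 Kupffer cell markers 1 rose and 0 fell, namely Clec4f, with 1.002 CPM in Acadl KO / Acadvl wt and 0.209 CPM in wild type and no overlap of libraries (2.24, SE 0.60, edgeR adjusted p = 0.00599). The part of liver cells in the Cd163 values was not tested.

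Cd68 had 6.29, 5.86, 6.10 and 8.38 CPM in the Acadl KO / Acadvl wt libraries, against 4.80, 5.22, 5.47 and 5.19 CPM in the Acadl wt / Acadvl wt libraries. It was the one member without overlap, as were 18.1% of all genes in the higher direction, but its log2 change of 0.41 (SE 0.22) had an edgeR adjusted p of 0.153. The other 8 genes lay between -0.37 (Ptprc) and 0.14, and the median of the 10 was 0.05, beside -0.02 for all genes. A p that misses the threshold does not show that levels were alike: the 95% interval ran from -0.30 to 0.40 for C1qa and from -1.05 to 0.31 for Ptprc.

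The lists around the members held few calls in this comparison. Of 15 further macrophage markers 1 rose (Cd14, 0.98) and 1 fell (Ctsb, the protease cathepsin B, -0.45), with a median of 0.01. Of 14 resident markers 0 rose and 1 fell (Gas6, -0.33), of 12 monocyte markers 0 rose and 1 fell (Ace, -0.40), and none of the 8 class II genes was called, with list medians of -0.20, -0.22 and -0.27. In whole heart Ace is not particular to monocytes. Of 13 complement genes 1 rose (Cd93, 0.34) and 1 fell (C1s1, -0.32), and of 8 integrin-related genes 1 rose, Itgad (1.27, SE 0.31, edgeR adjusted p = 0.00343). Around Csf1r 1 of 11 rose (Irf8, 0.54) and 1 fell (Csf1, -0.89). Of 9 chemokines 2 rose, Ccl6 (0.89) and Ccl9 (0.83). Of 10 haem and iron genes 2 rose, Hmox1 (2.60, SE 0.59) at 175.8 CPM in Acadl KO / Acadvl wt and 31.7 CPM in wild type, and Ftl1 (1.42, SE 0.13, adjusted p = 2.625e-07).

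Both KO genotypes were compared directly, Acadl KO / Acadvl wt over Acadl Het / Acadvl KO. Itgam, C1qa, C1qb and C1qc were lower in Acadl KO / Acadvl wt, 4 of 10 members, beside 4.43% of all genes called and 2.66% called lower. No member was called higher. The median log2 change of the 10 was -0.63, beside 0.00 for all genes.

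Itgam had 2.90, 3.50, 2.65 and 2.98 CPM in the Acadl KO / Acadvl wt libraries, against 9.40, 4.20, 7.96 and 8.49 CPM in the Acadl Het / Acadvl KO libraries. The groups did not overlap, and replicate 2 of the Acadvl KO libraries was the nearest to the others. In all, 3.78% of genes were lower without overlap, and Itgam was the one member among them. Its log2 change was -1.32 (SE 0.30, edgeR adjusted p = 0.0197), -1.25 in batch 2 (adjusted p = 0.108) and -1.50 in batch 1, with 1 library a side.

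C1qa had 34.2, 22.4, 34.8 and 29.8 CPM in the Acadl KO / Acadvl wt libraries, against 43.3, 34.5, 51.8 and 59.7 CPM in the Acadl Het / Acadvl KO libraries. The highest Acadl KO / Acadvl wt library lay just above the lowest Acadl Het / Acadvl KO library, and the others did not overlap. The log2 change of C1qa was -0.64 (SE 0.17, edgeR adjusted p = 0.0338), that of C1qb -0.61 (SE 0.15, adjusted p = 0.0254) and that of C1qc -0.49 (SE 0.14, adjusted p = 0.0475). In batch 2 they were -0.50, -0.47 and -0.36 and in batch 1 -0.99, -0.96 and -0.82, in the order C1qa, C1qb, C1qc, and none was called within either batch.

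The calls in this comparison depended on single libraries. Members called ran from 0 to 8 over the 24 fits without 1 library. The count was 0 without Acadl KO / Acadvl wt replicate 2, and 0 without Acadl Het / Acadvl KO replicate 3 or replicate 4. It was 1 without Acadl KO / Acadvl wt replicate 1 or replicate 4, and 8 without Acadl Het / Acadvl KO replicate 2, the one with 36.8 CPM of Alb. The log2 change of Itgam remained at -1.52 to -1.21 over these fits and that of C1qb at -0.72 to -0.50. Without the libraries above 10 CPM of Alb, which takes 2 libraries from Acadl KO / Acadvl wt and 1 from Acadl Het / Acadvl KO, none of the 4 was called. Their log2 changes were then -1.53 (Itgam), -0.68 (C1qa), -0.64 (C1qb) and -0.58 (C1qc), with adjusted p of 0.0589 (C1qa) to 0.0841 (C1qc).

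Several members lay just past the threshold on the other side. Lyz2 had -0.71 (edgeR adjusted p = 0.051), Ptprc -1.11 (adjusted p = 0.053), Cd68 -0.72 (adjusted p = 0.0584) and Mrc1 -0.50 (adjusted p = 0.0713), while Csf1r had -0.31 (adjusted p = 0.301). Cd163 was the one member with a positive log2 change, 0.52 (adjusted p = 0.145), with 43.0 ± 6.92 CPM in Acadl KO / Acadvl wt and 29.8 ± 7.18 CPM in Acadl Het / Acadvl KO (SD, n = 4 each). Without Acadl Het / Acadvl KO replicate 1, the highest of its group, Cd163 was called higher in Acadl KO / Acadvl wt (0.71, adjusted p = 0.0487). Leaving out the highest library lowers the mean of its group by itself, so this call adds no support. Over the 24 fits without 1 library, the change of Cd163 ran from 0.39 to 0.71 and that of Ptprc from -1.34 to -0.56.

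Some other phagocyte genes were lower in Acadl KO / Acadvl wt too. Of 15 further macrophage markers 0 rose and 7 fell (median log2 change -0.97), among them Lgals3 (-1.51), Gpnmb (-1.40, SE 0.18, edgeR adjusted p = 0.000187), Trem2 (-1.38) and the lysosomal protease gene Ctss (-0.99). Of 8 integrin-related genes around Itgam 0 rose and 4 fell (median -0.83). The partner chain of Itgam, Itgb2, was among them, with 4.72 CPM in Acadl KO / Acadvl wt and 9.47 CPM in Acadl Het / Acadvl KO (-1.003, SE 0.23, adjusted p = 0.0202). Of 13 complement genes 0 rose and 5 fell (median -0.49): Cfb (-0.81), C1s1 (-0.59), C1ra (-0.56) and C3 (-0.55) were among them, and the products of C1s1 and C1ra are the proteases that C1q carries.

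Of 12 monocyte markers 0 rose and 4 fell (median -0.64), with Ccr2 at -1.99 (SE 0.56). Of 7 dendritic cell markers 0 rose and 4 fell (median -1.65). Of 14 resident markers 0 rose and 2 fell, Stab1 (-0.43) and Gas6 (-0.34), and of 11 genes around Csf1r 0 rose and 2 fell, Cebpa (-0.63) and Maf (-0.58), with list medians of -0.25 and -0.57. None of the 8 class II genes was called (median -1.34). Of 9 chemokines 0 rose and 1 fell (median -0.36), and of 10 haem and iron genes 0 rose and 1 fell, Lrp1 (-0.32), a receptor for hemopexin with its haem (median 0.12). Markers of further cells were among the lower genes: 1 of 4 neutrophil markers (median -1.22) and 1 of 8 fibroblast markers (median -0.51) fell, and 0 of 9 lymphocyte markers were called (median -0.85). Their part in the members' values was not tested.

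Carrying 1 changed Acadl allele was tested by setting Acadl Het / Acadvl wt over Acadl wt / Acadvl wt. With edgeR 0 of 10 members and 0% of all genes were called (DESeq2 called 1 gene, no member), and 541 genes, 3.42%, had an unadjusted p under 0.05. Itgam (0.82, SE 0.29), C1qb (0.39, SE 0.15) and Mrc1 (0.42, SE 0.16) were among these, with unadjusted p of 0.0103, 0.0156 and 0.0149 and an edgeR adjusted p of 0.9997 each. C1qa, C1qb, C1qc, Mrc1 and Lyz2 were higher in all 4 Acadl Het / Acadvl wt libraries than in all 4 wild type libraries, 5 of 10 members, where 1.88% of all genes were. C1qb, for one, had 38.0, 33.7, 34.3 and 34.4 CPM in Acadl Het / Acadvl wt, against 27.2, 27.7, 24.7 and 27.9 CPM in wild type. C1qc, Mrc1 and Lyz2 separated only narrowly. Their lowest Acadl Het / Acadvl wt levels were 32.05, 28.56 and 100.3 CPM, and their highest wild type levels 31.95, 28.23 and 99.4 CPM. Most members vary together from library to library, so these 5 are not 5 separate observations. None of the genes in the lists around the members was called here.

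Carrying 1 changed Acadvl allele was tested by averaging Acadvl Het against Acadvl wt over Acadl Het and Acadl KO. No member was called, beside 0.0127% of all genes, and the members' log2 changes were -0.06 to 0.21. The widest of the 10 intervals was that of Ptprc, from -0.54 to 0.43. An interaction between Acadl KO and Acadvl Het was called for 0 members and 0% of all genes, while 817 genes, 5.17%, had an unadjusted p under 0.05. Itgam was the member among these, with an interaction of 0.94 on the log2 scale (SE 0.43, unadjusted p = 0.0425, edgeR adjusted p = 0.936). Between batch 2 and batch 1 no member was called, beside 0.0127% of all genes.

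Set in order of their means, the genotypes ranked differently for different members. For Cd163 the order was Acadl KO / Acadvl Het (47.2 ± 9.43 CPM), Acadl KO / Acadvl wt (43.0 ± 6.92), wild type (33.0 ± 9.21), Acadl Het / Acadvl wt (31.9 ± 8.37), Acadl Het / Acadvl KO (29.8 ± 7.18) and Acadl Het / Acadvl Het (29.5 ± 4.52). Neighbours in that order differed by less than the larger of their SDs, except for Acadl KO / Acadvl wt and wild type, whose means lay farther apart than either SD. For Cd68 the order began with Acadl Het / Acadvl KO (11.04 ± 4.178 CPM), Acadl KO / Acadvl Het (8.80 ± 2.56) and Acadl KO / Acadvl wt (6.66 ± 1.16), which overlapped one another. Acadl Het / Acadvl Het (5.69 ± 0.939), Acadl Het / Acadvl wt (5.68 ± 0.726) and wild type (5.17 ± 0.275) followed and did not differ beyond their spread.

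Itgam was highest in Acadl Het / Acadvl KO (7.51 ± 2.29 CPM) and Acadl Het / Acadvl wt (6.75 ± 2.58), which overlapped, then in Acadl Het / Acadvl Het (5.17 ± 1.57), Acadl KO / Acadvl Het (4.44 ± 1.60), wild type (3.83 ± 0.672) and Acadl KO / Acadvl wt (3.01 ± 0.356). Their neighbours differed by less than the larger SD, except for Acadl KO / Acadvl wt and wild type. C1qa followed Acadl Het / Acadvl KO (47.3 ± 10.9 CPM) with Acadl Het / Acadvl wt (36.6 ± 2.89), Acadl Het / Acadvl Het (34.7 ± 8.22), Acadl KO / Acadvl Het (34.7 ± 5.47), Acadl KO / Acadvl wt (30.3 ± 5.72) and wild type (29.4 ± 1.13), and neighbours differed by less than the larger of their SDs. Csf1r had the flattest profile, with 55.5 ± 14.9 CPM in Acadl Het / Acadvl KO and 43.5 to 46.8 CPM as the means of the other 5 genotypes (SD throughout).

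Ratios to C1q within each library set the members beside one another, as a description. Cd163 per mean C1q gene (RPKM over RPKM) was 0.242 to 0.388 in the 9 libraries labelled Acadl KO (median 0.321), 0.110 to 0.235 in the 4 Acadl Het / Acadvl KO libraries (median 0.152), 0.130 to 0.280 in the 7 Acadl Het libraries with no KO (median 0.219) and 0.178 to 0.347 in the 4 wild type libraries (median 0.282). The labelled Acadl KO and the Acadvl KO libraries did not overlap, but the gap was narrow (0.242 against 0.235). Between Acadl KO / Acadvl wt and Acadl Het / Acadvl KO, Cd163 had a positive change and the C1q genes were called lower. The ratio sets these changes against each other, so its separation adds no support to them. In wild type, batch 2 gave 0.178 to 0.246 and batch 1 gave 0.317 to 0.347, so the wild type range spans the batches.

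Cd68 per C1q separated both KO kinds from the Acadl Het libraries without KO in all but 1 library. It was 0.149 to 0.244 in libraries labelled Acadl KO (median 0.205), 0.168 to 0.248 in Acadl Het / Acadvl KO (median 0.194), 0.123 to 0.151 in the Acadl Het libraries (median 0.143) and 0.147 to 0.168 in wild type (median 0.150). Itgam per C1q overlapped throughout, with medians of 0.0235 in libraries labelled Acadl KO, 0.0347 in Acadl Het / Acadvl KO, 0.0335 in the Acadl Het libraries and 0.0313 in wild type.

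**Figure D3:**
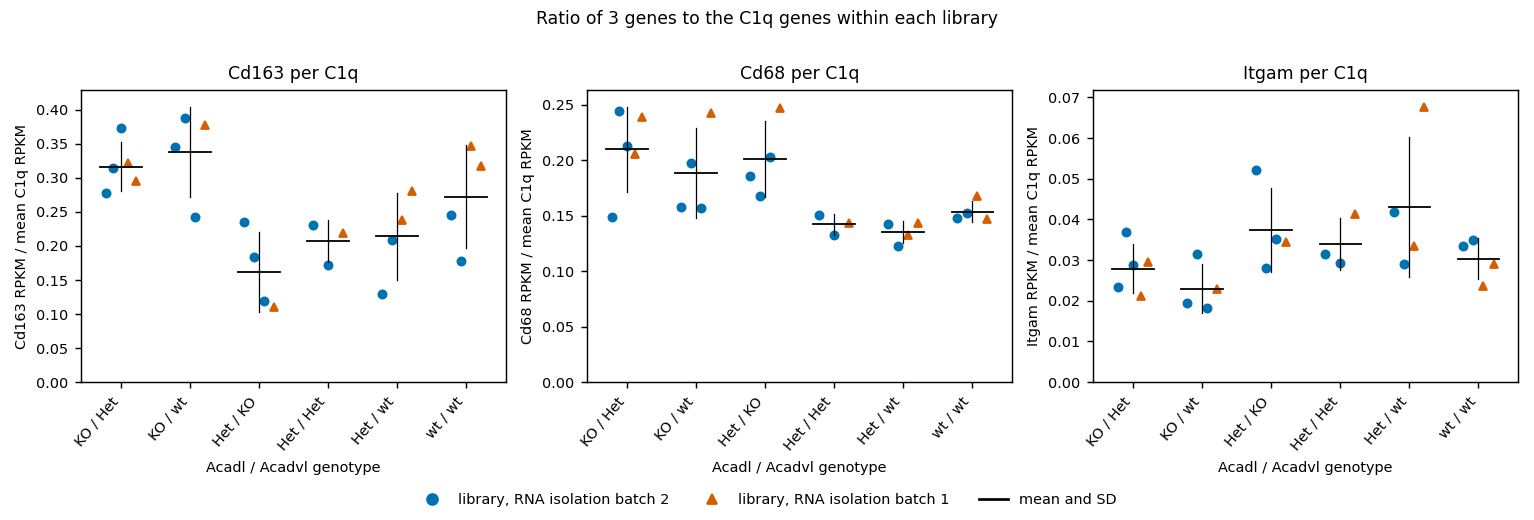
Ratio of Cd163, Cd68 and Itgam RPKM to the mean RPKM of C1qa, C1qb and C1qc within each library (y axes, from 0) by Acadl / Acadvl genotype (x axis), with points for libraries, their shape and colour the RNA isolation batch, and lines for mean and SD. Cd163 per C1q is 0.242 or more in every library labelled Acadl KO and 0.235 or less in every Acadl Het / Acadvl KO library.

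Within genotypes and batches most members, though not Cd163, rose and fell together. After the means of genotype and batch were removed from log2 CPM, 30 of the 45 pairs of members correlated positively over the 24 libraries and 0 negatively (Pearson, permutation test, Benjamini-Hochberg adjusted p over 45 pairs), and 28 pairs passed by Spearman's rho. The residuals have 17 degrees of freedom, so these p-values are approximate and too small. The median r was 0.64. Of the 30 pairs 26 also passed without the 2 libraries farthest from the median of the gene on the x axis, and the other 4 (Cd68 with Csf1r, Itgam with C1qa, Itgam with C1qc and C1qb with Csf1r) rest on those libraries. In the 15 libraries of batch 2 all 30 had an r above 0 (median over the 45 pairs 0.73), and batch 1, with 3 residual degrees of freedom, was too small for values of its own.

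Over the 24 libraries the C1q genes were the closest, neighbours on chromosome 4 whose products form 1 protein complex. C1qa and C1qc had r = 0.96 and rho = 0.95 (permutation adjusted p of 4.5e-05 and 5.625e-05, from the smallest p the permutations can give), C1qb and C1qc r = 0.94 and rho = 0.94, and C1qa and C1qb r = 0.92 and rho = 0.89. Without the 2 farthest libraries these r were 0.94, 0.92 and 0.88. Within a library the highest of the 3 CPM values was 1.01 to 1.22 times the lowest (median 1.07).

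Several further pairs followed close to one another. Csf1r and Lyz2 had r = 0.84 and rho = 0.83 (0.81 without the 2 farthest libraries) and Itgam and Mrc1 r = 0.84 and rho = 0.72 (0.75 without them), with permutation adjusted p of 4.5e-05 each by Pearson. Cd68 had r of 0.83 with Mrc1, 0.83 with C1qc and 0.82 with C1qb, and Lyz2 and Ptprc had the highest rho outside C1q, 0.87. In batch 2 alone Cd68 and Mrc1 had the highest r of the 45 pairs, 0.98. Itgam and Csf1r, both surface receptors of macrophages, had r = 0.14 and rho = 0.08 (permutation adjusted p = 0.597 and 0.807).

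Cd163 correlated with none of the other 9 members. Its r ran from -0.37 with Ptprc (rho = -0.27, permutation adjusted p = 0.104 and 0.248) to 0.40 with Mrc1 (rho = 0.43, adjusted p = 0.0787 and 0.0534), with a median of 0.06. In batch 2 alone its r ran from -0.30 to 0.36. The next fewest partners were 5, for Itgam and Mrc1.

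**Figure D4:**
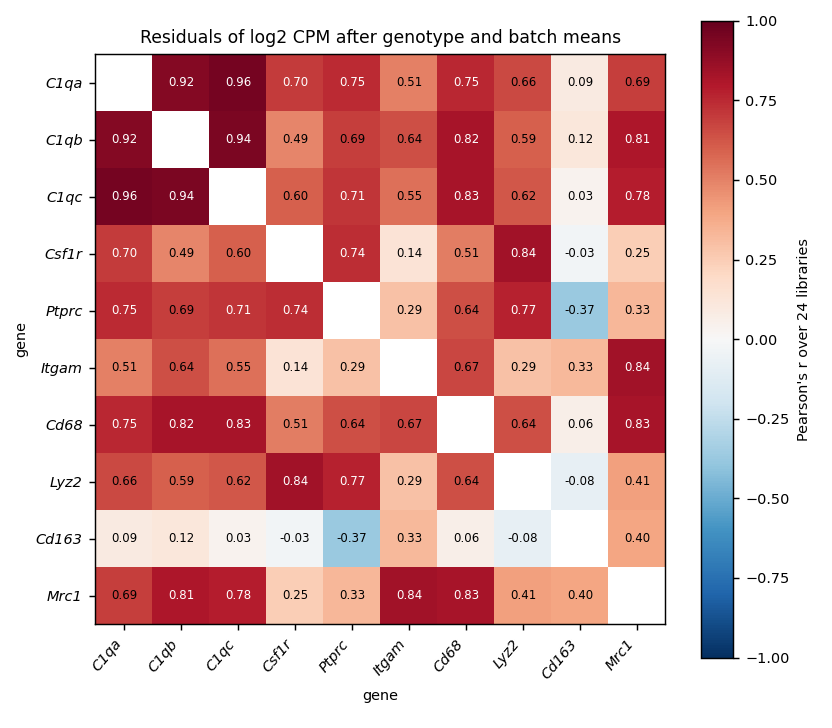
Pearson's r (colour, and number in each cell) between the residuals of log2 CPM of each pair of the 10 genes after genotype and batch means, over 24 libraries; genes are on both axes. The block of C1qa, C1qb and C1qc reads 0.92 to 0.96, and the row of Cd163 reads -0.37 to 0.40.

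Among 12352 genes at a mean of 1 CPM or more, the 8 whose residuals were most like the mean of the members' were Fcgr3 (r = 0.94), Tyrobp (0.91), Cd53 (0.88), Nrros (0.88), Alox5ap (0.88), Nckap1l (0.88), Lyz1 (0.87) and C5ar1 (0.87), each over 24 libraries and chosen for that r, so no test is given. Lyz1 shares reads with Lyz2, which is in the mean.

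Markers of other cells give the setting of these levels. The summed level of the 10 members was 292.0 to 431.6 CPM in Acadl KO / Acadvl Het, 269.1 to 339.7 in Acadl KO / Acadvl wt, 340.2 to 587.4 in Acadl Het / Acadvl KO, 272.6 to 377.1 in Acadl Het / Acadvl Het, 314.2 to 363.8 in Acadl Het / Acadvl wt and 283.4 to 323.4 CPM in wild type. Heart muscle transcripts were abundant throughout, with 10 cardiomyocyte markers summing to 76470 to 98660 CPM. Lymphocyte markers summed to 1.25 to 6.29 CPM and neutrophil markers to 1.24 to 6.09 CPM, with Cd3e, Cd3d, Trbc2, Cxcr2, Retnlg, Ngp, Camp and Ly6g too low to pass the filter.

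These sums moved with the members in part. Neutrophil markers summed to 2.33 to 6.09 CPM in Acadl Het / Acadvl KO and 3.10 to 4.36 CPM in Acadl Het / Acadvl wt, and lymphocyte markers to 2.31 to 6.29 CPM and 2.83 to 4.88 CPM in the same order. Dendritic cell markers summed to 9.49 to 20.3 CPM in Acadl Het / Acadvl KO and 7.85 to 12.0 CPM in Acadl Het / Acadvl wt. Of these markers 2 of 7 were called higher, beside 12.9% of all genes. Fibroblast markers summed to 905.4 to 1361 CPM and 849.3 to 1014 CPM in the same order. Endothelial markers summed to 2156 to 3845 CPM in the libraries labelled Acadl KO and 1789 to 2122 CPM in the Acadl Het libraries with no KO. Of 8 endothelial markers 3 rose and 2 fell, beside 26.7% of all genes called higher and 27.9% lower. Their log2 changes ran from -0.45 to 1.07 with a median of 0.07, so the summed level does not stand for the list as a whole. The part of these other cells in the members' results was not tested.

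The other cell lists held calls as well. In the comparison of Acadl Het / Acadvl KO with Acadl Het / Acadvl wt, 11.5% of all genes were called lower and 12.9% higher. Of the lists, 4 of 10 cardiomyocyte markers, 1 of 9 lymphocyte markers and 0 of 4 neutrophil markers fell, and 1 of 6 mast cell markers rose. In libraries labelled Acadl KO against Acadl Het, 27.9% of all genes were called lower and 26.7% higher. There 4 of 10 cardiomyocyte, 3 of 8 fibroblast, 2 of 9 lymphocyte, 1 of 4 neutrophil and 1 of 7 dendritic cell markers fell and 1 of 6 mast cell markers rose. No erythroid marker (of 6) and no adipocyte marker (of 3) was called in these comparisons.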

How the data were processed

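Messenger RNA of 24 heart samples was captured by its polyA tail and sequenced as single-end reads, 1 library per sample, per the labels' protocols. The authors deposited whole-number read counts for each gene, without normalization. Per the file headers, featureCounts 1.5.2 counted primary alignments over exons of UCSC mm10 genes without regard to strand, and a read over several genes was counted for each. STAR 2.5.1b and featureCounts 1.5.3 are listed in the submitters' processing notes. Exon lengths used for RPKM are those deposited beside the counts, per the file headers.

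Counts were tested with edgeR 4.0.16 in R 4.3.3. The filter (filterByExpr on the 6 genotypes) left 15804 of 24421 genes, and libraries were scaled by TMM factors. All 24 libraries entered 1 quasi-likelihood fit on genotype plus RNA isolation batch, and two-sided p-values were Benjamini-Hochberg adjusted across the genes tested, with a threshold of 0.05. Standard errors come from the F statistic. CPM and RPKM use TMM factors, and log2 CPM for correlations a prior count of 2. A fit of one batch, a fit without each library in turn, DESeq2 1.42.0, limma 3.58.1 voom and other settings were run as alternatives. SciPy 1.17.1 was used for ratios and correlations, with 1e+05 permutations. Counts limit precision to counting error plus the spread between libraries. Replicates are numbered in accession order, and the numbers pair nothing.

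The 10 members, the 20 gene lists around them and the rules for naming genes were chosen with earlier results of these data known. Some genes stand in several lists, such as Slc40a1. Each list's called genes were named up to 4 per comparison, by the largest log2 change among those with a mean of at least 1 CPM. Genes named outside that rule (Clec4f, Vsig4, Timd4 and Lyz1) were chosen after their values were seen. A deposited table that pools the same counts was not used. Some genes that this naming rule would give are not reported here.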

Additional observations from a re-analysis of the deposited data

Results flagged for a closer look

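Over 50 groups of libraries (10 genes in 5 genotypes with at least 4 libraries), 2 held 1 library far from the rest, where chance would set apart about 1 in 20 groups. Cd163 in Acadl Het / Acadvl KO replicate 1 was at 40.5 CPM while the other 3 lay at 26.0 to 26.4 CPM, a gap of 0.970 of the group's range. C1qb in Acadl Het / Acadvl wt replicate 1 was at 38.0 CPM while the other 3 lay at 33.7 to 34.4 CPM, a gap of 0.842 of the range.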

How the results depend on the processing

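No paired analysis was possible because the labels give no replicate numbers, and those used here follow accession order. The titles open with 13 numbers whose meaning is not stated, 10 of them shared by 21 libraries. A limma voom fit with these as a random block, chosen after seeing the data, had an estimated correlation of 0.0269 within a number. The limits are 3 to 5 libraries a genotype, 2 batches that split only Acadl Het / Acadvl wt and wild type evenly, liver transcripts in 6 libraries, and members at 101 to 9138 reads. DESeq2 size factors moved no count by over 1.5 times and turned no direction. The cause of each change below was not tested. KO/wt stands for Acadl KO / Acadvl wt, and so on. Counts of called genes and members that moved are given with the main count after them. KO/wt over wt/wt had 74 genes in batch 1 and 3900 without libraries above 10 CPM of Alb (5874), and 1 member in batch 2 (0). Labelled Acadl KO over Acadl Het had 1 member in batch 2, 0 members and 2122 genes in batch 1, and 1 member and 3618 genes without the Alb libraries (3 and 8639). Het/wt over wt/wt had 1 gene with DESeq2 (0). Het/KO over Het/wt had 1 member with no filter, with limma voom (also with the block) and with no batch term, 0 in batch 2 and 4 without the Alb libraries (2), and 194 genes in batch 1 (3853). KO/wt over Het/KO had 8 members and 1214 genes with DESeq2, 0 members in batch 2 (55 genes), batch 1 (2 genes) and without the Alb libraries (67 genes) (4 and 700). Acadvl Het over Acadvl wt had 9 genes with DESeq2 and 0 in batch 2, in batch 1 and without the Alb libraries (2). The interaction had 100 genes with DESeq2 and 45 with no batch term (0). Any difference had 5268 genes and 1 member in batch 2 and 717 genes and 2 members in batch 1 (8076 and 9). Signs turned as follows, on the log2 scale. These changes were small over all libraries, except for Ptprc in KO/wt over wt/wt (-0.3732) and Het/KO over Het/wt (0.5872) and for Cd68 (0.3442) and C1qa (0.2676) in the interaction. KO/wt over wt/wt turned for Mrc1 with no batch term (-0.0108), for Csf1r (0.108) and Ptprc (0.1539) in batch 1 and for Csf1r without the Alb libraries (0.0165). Labelled Acadl KO over Acadl Het turned for Csf1r with limma voom (-9e-04, and -0.0039 with the block) and in batch 1 (-0.0032) and for C1qc in batch 2 (0.0106). Het/wt over wt/wt turned in batch 2 for Cd163 (0.0035) and Ptprc (-0.0132). Het/KO over Het/wt turned for Cd163 (0.2911) and Ptprc (-0.0238) in batch 2 and for Cd163 without the Alb libraries (0.0067). Acadvl Het over Acadvl wt turned for Lyz2 with limma voom (-0.0208, and -0.0131 with the block), with no batch term (-3e-04), in batch 1 (-0.2365) and without the Alb libraries (-0.0865). It also turned in batch 2 for Csf1r (0.1058), Mrc1 (0.0092) and Ptprc (0.0195), and for Cd163 in batch 1 (-0.1713) and, without the Alb libraries, for Cd163 (-0.0155) and Mrc1 (0.1378). The interaction turned for Ptprc with DESeq2 (0.0092), limma voom (0.0409, and 0.0429 with the block), no batch term (0.03) and batch 2 (0.3347), in batch 2 for Csf1r (0.1116) and Lyz2 (0.012), and in batch 1 for Cd68 (-0.1168) and C1qa (-0.0159). Leaving out 1 library at a time, 131 to 1000 genes and 0 to 8 members were called for KO/wt over Het/KO, 1 to 5 members for Het/KO over Het/wt, 0 to 93 genes for the interaction, 0 to 1 gene for Het/wt over wt/wt and 4 to 9 members for any difference. The changes that crossed 0 ran from -0.0213 to 0.1788 for C1qa and -0.1293 to 0.0891 for Csf1r (KO/wt over wt/wt), -0.1173 to 0.0085 for C1qc and -0.0276 to 0.1064 for Csf1r (labelled Acadl KO over Acadl Het), and -0.1659 to 0.091 for Cd163 (Het/wt over wt/wt). For Het/KO over Het/wt they ran from -0.2085 to 0.1354 for Cd163, -0.0203 to 0.4384 for Itgam and -0.0191 to 0.8053 for Ptprc. For Acadvl Het they ran from -0.0172 to 0.1479 for C1qa, -0.0413 to 0.0796 for Cd163, -0.0701 to 0.059 for Csf1r, -0.0334 to 0.2298 for Itgam, -0.091 to 0.0777 for Lyz2, -0.0877 to 0.0347 for Mrc1 and -0.2225 to 0.0607 for Ptprc. For the interaction they ran from -0.164 to 0.058 for Csf1r and -0.2492 to 0.3127 for Ptprc. The interaction without the Alb libraries was not run, since no Acadl Het / Acadvl Het library remained. For the same reason, labelled Acadl KO over Acadl Het without the Alb libraries was KO/wt over Het/wt alone. Acadvl Het over Acadvl wt without them was KO/Het over KO/wt alone.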
